A study of Mus musculus with 4 samples.

Results

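Mouse genes whose symbol starts with Tmem and a number encode proteins that were named for their membrane-spanning segments before their function was known. The group examined here holds every probe set of the array that had a single gene symbol of that form and a mean deposited signal of at least 100 over all 4 arrays. It comprised 154 probe sets from 111 genes, out of 379 probe sets from 218 Tmem-named genes at any signal and of 45101 probe sets in all. Members were chosen by symbol and by signal level, so their brightness is not a finding. The mean was taken over both fractions, and 9 members reached the floor although their mean in 1 fraction was below it (3 in cell bodies and 6 in pseudopodia). Just inside the floor lay probe sets of Tmem214, Tmem19 and Tmem38a, with mean signals of 102, 104 and 106, and just outside lay probe sets of Tmem8b, Tmem132a and Tmem30a, with 96.7, 95.3 and 90.4.

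The RNA came from NIH/3T3 cells, an established mouse embryonic fibroblast line. After serum starvation the cells were left to spread for 2 h on fibronectin-coated porous filters, and lysophosphatidic acid (LPA, a serum lipid that stimulates migration) was then given for 1 h at 150 ng/ml in the lower chamber. Pseudopodia that had grown through the pores and the cell bodies above them were collected separately after light formaldehyde fixation, and 2 independent samples of each were hybridised to 1 array each. All 4 samples were starved and stimulated with LPA, so the fractions differ in the part of the cell and not in treatment. The comparison asks which of these RNAs are distributed unequally between the protrusion and the cell body. Each array had been scaled to the same total, so a difference is one of shares of the signal, and a smaller amount per protrusion cannot be told apart from a smaller share of its RNA.

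Membrane proteins are made on ribosomes bound to the endoplasmic reticulum, inserted into its membrane during synthesis and passed on through the Golgi apparatus to the cell surface, endosomes and lysosomes. Their messages can be held on that membrane during synthesis. Where in the cell the messages of these members are bound was not examined here. Membrane proteins of mitochondria take another route, since their messages are translated by cytosolic ribosomes or on the mitochondrial surface. The Tmem name cuts across these routes, and its members include channels, lipid scramblases, enzymes, assembly factors and many proteins without a settled role.

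RNAs listed beforehand as checks of the fractions differed in the direction of the labels. Kif1c, Pkp4, Rab13 and Ddr2, described as protrusion-enriched, stood between 1.54 and 2.14 on the log2 scale and were called higher in pseudopodia. Neat1, a nuclear RNA, stood at -2.17 and was called lower. Whether the protrusion-enriched description rests in part on these same data was not examined, so these values are not independent support for the labels. Of 8 fibroblast markers, 7 had a mean signal of at least 100 and none was called in the test. Thy1 was dim, at 27.9. Col1a1, Col1a2, Col3a1, Pdgfrb and Fn1 stood at -0.41, -0.31, -0.37, -0.34 and -0.06, and Vim and S100a4 at 0.27 and 0.22. The summed signal of the 8 markers, which blends these opposite values, was 119757 and 123369 for the cell bodies, against 113992 and 118243 for the pseudopodia. The summed signal of 4 nucleus-retained RNAs was 5493 and 6370 for the cell bodies, against 1228 and 2526 for the pseudopodia. Nearly all of it came from Neat1 and Malat1. Malat1 stood at -1.39 without being called, with 438.5 and 1545.6 in the pseudopodia. Xist and Meg3 were dim, with mean signals of 20.4 and 60.45, and Meg3 stood at -0.12. Of 6 epithelial markers, 2 reached a mean of 100 (Krt8 at 384 and Epcam at 271), with sums of 768 and 802 in the cell bodies, compared with 610 and 941 in the pseudopodia. Of 4 blood markers with a probe set, 1 did (Lyz2 at 228), with sums of 346 and 279 in cell bodies, against 242 and 212 in pseudopodia. The 3' to 5' ratio of the beta-actin control, a sign of RNA integrity, was 1.55 and 1.89 in cell body samples, and in pseudopodia samples it was 1.77 and 3.41. For the Gapdh control the same ratio was 0.92 and 0.95 in cell body samples, and 0.96 and 1.01 in pseudopodia samples. The part of RNA integrity or of nuclear content in the differences below was not tested.

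More Tmem-named probe sets had negative than positive differences, and only a small number passed the test. The median difference between pseudopodia and cell bodies was -0.24, against -0.03 for all 22519 probe sets that passed the filter on dim values. Differences are log2(scaled signal + 32), pseudopodia minus cell bodies, with the standard error (SE) from limma after ± and n = 2 in each fraction, and they understate changes of dim probe sets. Relative to the median probe set the group stood at -0.21, and it did so in each replicate pair (-0.21 in both). Positive values were held by 50 members and negative values by 104, so 32.5% were positive, against 47.7% of all probe sets. The fractions did not overlap in 101 members, 26 with both pseudopodia arrays above both cell body arrays and 75 with both below. Over all probe sets the shares were 24.7% and 28.2%.

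In the limma test, with Benjamini-Hochberg adjustment over all 22519 probe sets and a threshold of 0.05, 1 member rose in pseudopodia and 8 fell. Of the 154 members 0.65% were called higher and 5.2% lower, against 1.08% and 3.32% of all probe sets. Among all probe sets of at least the same floor the shares were 1.64% and 4.52%. At this cut the calls among members lie near those shares, which does not hold for every cut below. A further 20 members had an adjusted p between 0.05 and 0.1 in the same fit, 15 of them with negative values. No member stood above 1, and 13 stood below -1. Among the latter, probe sets of Tmem186, Tmem258, Tmem151a and Tmem176a reached the floor only through the cell bodies, so their low values are partly built in. The share of all probe sets beyond 1 or -1 was not counted. With the replicate number as a block, which pairs arrays of the same experiment and scan day, 12 members were higher and 38 lower, where 6.84% and 11.3% of all probe sets were called. With each gene represented by its brightest probe set, 1 of 111 genes rose and 15 fell, against 1.81% and 3.39% of all 10962 genes. Without its variance trend limma called no probe set of the table, and 10 members were higher and 36 lower at an unadjusted p under 0.05. Without the filter on dim probe sets limma called none of the members (13 and 45 at an unadjusted p under 0.05), while 0.0866% of all probe sets were higher and 0.304% lower. When either cell body array was left out, no probe set of the whole table was called, while 8 members higher and 18 lower (without replicate 1) and 2 and 24 (without replicate 2) had an unadjusted limma p under 0.05. Without pseudopodia replicate 1 the counts were 7 higher and 31 lower, where 5.79% and 11.8% of all probe sets were called, and without pseudopodia replicate 2 they were 7 and 29, where 3.3% and 9.56% were. At an unadjusted p under 0.05 in the main test, 12 members were higher and 44 lower, against 8.66% and 13.3% of all probe sets.

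**Figure D1:**
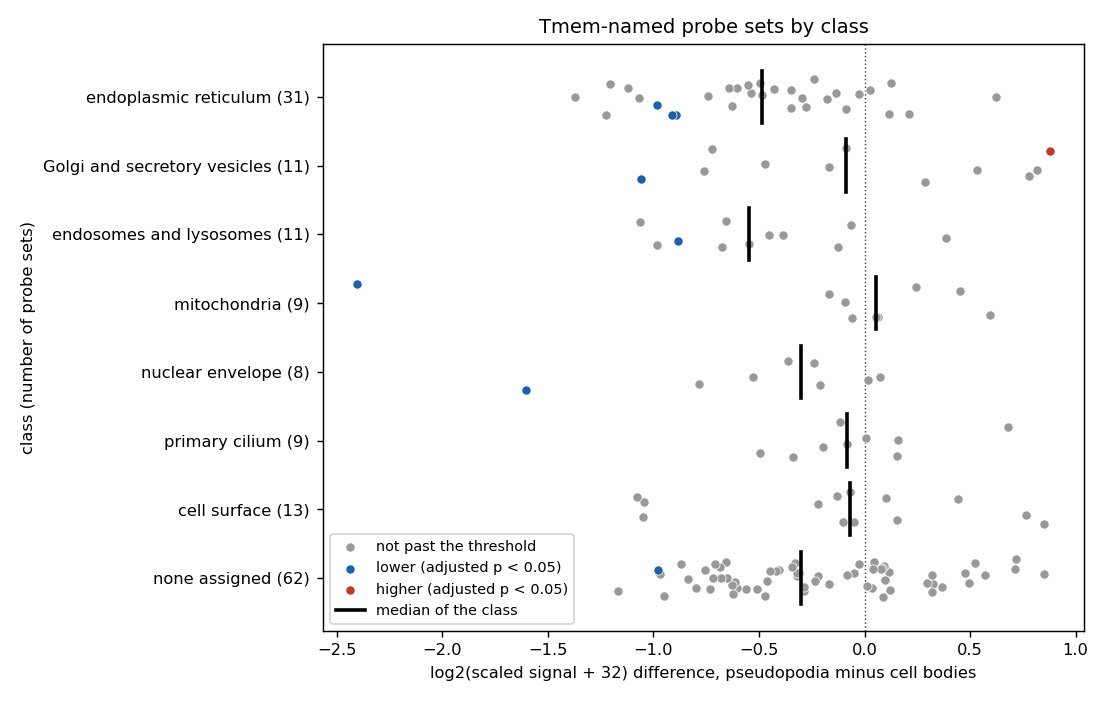
Each point is 1 of the 154 Tmem-named probe sets, placed by its log2 difference between pseudopodia and cell bodies (x axis) and by the class of its gene (y axis, number of probe sets in brackets), with a black bar at the median of each class. The medians of the endoplasmic reticulum and lysosome classes lie at -0.48 and -0.55, and that of the mitochondrial class lies at 0.06.

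A cellular location was assigned to 68 of the genes (92 probe sets) from general knowledge, and 43 genes were left without one. The classes were chosen with earlier results of these data known, so class counts and medians are descriptions and not independent contrasts. Other scalings placed the median of all probe sets at 0.13 (median centring) or -0.31 (hybridization controls) in place of -0.03, so class medians and values within that distance of 0 have no settled sign. The endoplasmic reticulum class was the most numerous. Of its 31 probe sets from 19 genes, 26 had negative values, 3 fell and none rose, and the median was -0.48 (-0.48 and -0.33 in the replicate pairs). Over all probe sets 3.32% fell and 1.08% rose. In the fit by gene 5 of 19 fell and none rose, where 3.39% and 1.81% of all genes did. At an unadjusted p under 0.05 in limma, 13 probe sets of the class were lower and none higher, where 13.3% and 8.66% of all were.

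Tmem131, which recruits machinery for the export of collagen, had signals of 1058.9 and 1086.4 in the cell bodies, compared with 523.6 and 603.3 in the pseudopodia. Both pseudopodia arrays were well below both cell body arrays, at -0.91 ± 0.20 (adjusted p = 0.0496, limma). Its relative Tmem131l stood at -0.95 ± 0.24 and did not pass as a probe set (adjusted p = 0.0668, limma) but did in the fit by gene (adjusted p = 0.0492, limma). Tmem97, the sigma-2 receptor, a regulator of cholesterol traffic, had signals of 1519.1 and 1571.3 in cell bodies, against 858.7 and 791.0 in pseudopodia. Its arrays within a fraction lay close together, and it fell by 0.89 on the log2 scale (SE 0.19, adjusted p = 0.0447, limma).

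Tmem41a belongs to a family of lipid scramblases, proteins that move phospholipids between the leaflets of a membrane. Its signals were 791.0 and 664.0 in the cell bodies, compared with 347.1 and 370.6 in the pseudopodia, a difference of -0.98 ± 0.21 (adjusted p = 0.0487, limma). Its relative Tmem41b, which is needed to form autophagosomes, was less uniform. Its 4 probe sets stood at -1.07, -0.49, -0.30 and 0.02, and none passed; with the replicate block the first did (adjusted p = 0.00546, limma). The 3 probe sets with the smaller differences are of the kind marked as open to cross-hybridisation.

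The lowest value in the class was that of Tmem39a, a protein of the endoplasmic reticulum that takes part in export to the Golgi, at -1.37 ± 0.30. Its signals were 902.2 and 625.2 in cell bodies, against 361.1 and 217.8 in pseudopodia. The fractions did not overlap, but each varied widely, and the adjusted p of 0.0501 (limma) missed the threshold; by gene it was 0.0381. Tmem258, a small subunit of the oligosaccharyltransferase that attaches sugars to nascent proteins, gave 150.1 and 189.8 against 71.5 and 57.3, at -1.21 ± 0.27 (adjusted p = 0.0528, limma, and 0.0423 by gene). Its mean in pseudopodia lay below 100, so it entered the group through the cell bodies. A dimmer probe set of Tmem258, with a mean signal of 24.0, stood at 0.34 in the fit without the filter. In RefSeq Tmem258 overlaps Fen1. With the replicate block Tmem131l, Tmem39a and Tmem258 all passed as probe sets (adjusted p = 0.00785, 0.000189 and 0.00661, limma).

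Tmem259, or membralin, which takes part in the degradation of misfolded proteins, stood at -0.74 ± 0.20 without passing (adjusted p = 0.0771, limma, and 0.0059 with the replicate block). Its signals were 1744.2 and 1460.1 in the cell bodies, compared with 992.9 and 904.0 in the pseudopodia. Bright members of the class did not all follow. Tmem147, a companion of the protein translocation channel, gave 3059.5 and 3007.8 in cell bodies, against 3845.9 and 3212.2 in pseudopodia, at 0.21 ± 0.17. Tmem208, which helps to target proteins to the membrane, stood at -0.35 ± 0.21, and Tmem33, a protein of the tubular network, stood at -0.03 ± 0.24 on its brightest probe set.

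The Golgi and secretory class held members at both ends. Of its 11 probe sets from 8 genes, 1 rose and 1 fell, where 1.08% and 3.32% of all probe sets did. Positive values were held by 5, and the median was -0.09. The positive ones were all 4 probe sets of Tmem167 and the probe set of Tmem230.

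Tmem167 encodes the mouse form of kish, a short protein needed for secretion. It was the only member called higher. Its brightest probe set gave 2485.7 and 2270.5 in the cell bodies, compared with 4296.3 and 4459.0 in the pseudopodia, so that the fractions were far apart and the arrays within each close together. The difference was 0.88 ± 0.16, or 1.84-fold (adjusted p = 0.0349, limma). The other 3 probe sets, at 0.82, 0.78 and 0.53, did not pass, although their fractions did not overlap either; the first and second passed with the replicate block (adjusted p = 0.00315 and 0.0356, limma). The last of them reached the floor only through the pseudopodia. Below the floor, 3 more probe sets of the gene, with mean signals of 12.6 to 29.1, stood at -0.49, 0.10 and 0.38 in the fit without the filter. On hybridization controls the difference was 0.56 and the call ended. Tmem167b stood at -0.17 ± 0.26, with overlapping fractions.

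Tmem165 is a Golgi transporter for calcium and manganese whose loss disturbs glycosylation. Its signals were 2393.5 and 2199.8 in cell bodies, against 1084.1 and 1100.4 in pseudopodia. It fell by 1.06 on the log2 scale (SE 0.18, adjusted p = 0.0291, limma), a 2.08-fold lower signal and the smallest adjusted p of the group. Tmem115 and Tmem87a, also of the Golgi, stood at -0.72 ± 0.25 and -0.76 ± 0.24 without passing, and passed with the replicate block (adjusted p = 0.0253 and 0.021, limma). Tmem230, of secretory vesicles, stood at 0.29 ± 0.18, with 2508.1 and 2553.8 in the cell bodies, compared with 2769.7 and 3454.8 in the pseudopodia.

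**Figure D2:**
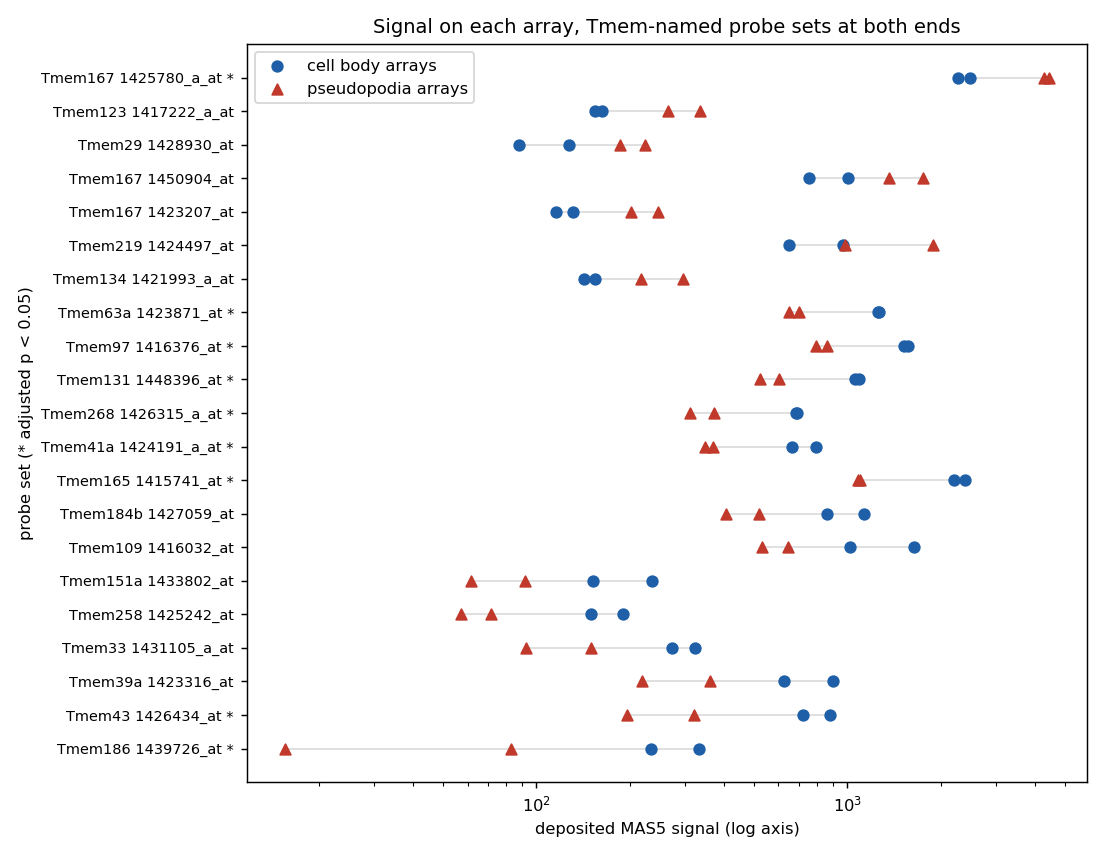
The deposited MAS5 signal (x axis, log scale) of the 9 probe sets that passed the threshold (marked with an asterisk) and of 12 that did not, namely the 6 highest and the 6 lowest by log2 difference (y axis), with a point for each cell body array and a triangle for each pseudopodia array. In each of these probe sets the 2 triangles lie on 1 side of the 2 points, though the gap is narrow in Tmem219.

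In the class of endosomes and lysosomes, 10 of 11 probe sets from 7 genes had negative values, 1 fell and none rose, and the median was -0.55. Over all probe sets 3.32% fell and 1.08% rose. By gene 3 of 7 fell, where 3.39% of all genes did. Tmem63a, a cation channel opened by membrane stretch, gave 1255.6 and 1259.8 in cell bodies, against 648.7 and 700.5 in pseudopodia. It differed by -0.88 ± 0.19 (adjusted p = 0.0483, limma). Its relative Tmem63b stood at -0.22 ± 0.24, with overlapping fractions.

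Tmem175 is a channel for potassium and protons in the lysosomal membrane. Its brighter probe set gave 327.7 and 297.0 in the cell bodies, compared with 155.2 and 128.2 in the pseudopodia, at -1.06 ± 0.23, which missed the threshold (adjusted p = 0.0503, limma) and passed by gene (adjusted p = 0.0369, limma). The dimmer probe set stood at -0.45. Tmem9, a partner of lysosomal chloride transporters, gave 648.6 and 504.3 against 306.9 and 258.3, at -0.98 ± 0.24 (adjusted p = 0.0607, limma, and 0.0452 by gene). Tmem127, a regulator of mTOR signalling, stood at -0.66 ± 0.21, and Tmem9b at -0.39 and -0.55. With the replicate block the brighter probe set of Tmem175, Tmem9, Tmem127 and the lower one of Tmem9b passed (adjusted p = 0.00405, 0.00307, 0.0157 and 0.0451, limma). The positive value in this class was that of the brighter probe set of Tmem192, a lysosomal membrane protein, at 0.39 ± 0.20; its other probe set stood at -0.12.

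The mitochondrial class had a median of 0.06, with 5 of 9 probe sets positive, none called higher and 1 called lower. Of all probe sets 1.08% were called higher and 3.32% lower. Tmem126a, a protein of the inner membrane that helps to assemble complex I, gave 2624.1 and 2395.3 in cell bodies, against 3561.8 and 4030.8 in pseudopodia. Both pseudopodia arrays were above both cell body arrays, at 0.59 ± 0.17, but the adjusted p was 0.0949 (limma), and 0.0112 with the replicate block. Tmem160, Tmem14c and Tmem11, which are also bright, stood at 0.06, -0.06 and 0.06, with overlapping fractions.

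The member called lower in this class was Tmem186, an assembly factor of complex I. Its probe set had the lowest value of the whole group, at -2.40 ± 0.51 (adjusted p = 0.0449, limma). The signals were 234.2 and 332.1 in the cell bodies, compared with 15.5 and 82.8 in the pseudopodia, so the pseudopodia arrays differed from each other as well as from the cell bodies, and it entered the group through the cell bodies alone. The 3 dimmer probe sets of Tmem186, with mean signals of 65.6, 31.5 and 21.6, stood at -0.33, -0.51 and 0.33 in the fit without the filter. In RefSeq the gene overlaps Pmm2.

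In the nuclear envelope class 1 of 8 probe sets fell and none rose, where 3.32% and 1.08% of all did, and the median was -0.30. Tmem43, or LUMA, is a protein of the inner nuclear membrane and endoplasmic reticulum that binds lamins and emerin. Its signals were 878.9 and 721.6 in cell bodies, against 321.6 and 194.9 in pseudopodia. It fell by 1.61 on the log2 scale (SE 0.28, adjusted p = 0.0304, limma), with a 3.04-fold lower signal. Tmem209, of the nuclear envelope, stood at -0.78 ± 0.30, Tmem201, which links the envelope to the cytoskeleton in moving cells, stood at -0.21 and -0.53 on its 2 probe sets, and Tmem120a stood at 0.08.

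None of the 9 probe sets of the ciliary class passed in the main limma test. At an unadjusted p under 0.05, 1 was higher and none lower, where 8.66% and 13.3% of all probe sets were. The same counts passed with the replicate block, where 6.84% and 11.3% of all did. Its highest value was that of Tmem107, a component of the ciliary transition zone, at 0.68 ± 0.20, with 2491.1 and 2164.5 in the cell bodies, compared with 3268.9 and 4242.6 in the pseudopodia. The adjusted p was 0.0951 (limma), and 0.00758 with the replicate block. The second, dimmer probe set of Tmem107 stood at 0.15, with overlapping fractions. Tmem237, Tmem138 and the brighter probe set of Tmem216 stood at 0.16, -0.34 and -0.50.

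None of the 13 probe sets of cell surface proteins passed in the main limma test either. At an unadjusted p under 0.05, 1 was higher and 3 lower, where 8.66% and 13.3% of all probe sets were. With the replicate block 2 were higher and 3 lower, where 6.84% and 11.3% of all were. Their median was -0.07. By gene, Tmem184b fell (-1.08 ± 0.23, adjusted p = 0.0390, limma), with 1133.7 and 860.0 in cell bodies, against 518.4 and 408.0 in pseudopodia; its adjusted p as a probe set stood just above the threshold. Tmem119, a membrane protein of bone-forming cells and microglia, differed by -1.05 ± 0.32 without passing (adjusted p = 0.109, limma), and passed with the replicate block (adjusted p = 0.000677, limma). Its signals were 1625.3 and 998.7 in the cell bodies, compared with 784.3 and 471.9 in the pseudopodia, so replicate 2 lay below replicate 1 in both fractions, while the pairs gave much the same difference. Tmem219, a receptor for an insulin-like growth factor binding protein, showed the opposite arrangement at 0.76 ± 0.34, with 648.9 and 971.5 against 979.8 and 1886.4, and an adjusted p of 0.239 (limma), or 0.00695 with the replicate block. Tmem158, Tmem150a and Tmem30a, the partner subunit of phospholipid flippases, stood at -0.10, -0.07 and -0.05 on their brightest probe sets.

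Among the 62 probe sets without a class, 1 fell and none rose, where 3.32% and 1.08% of all probe sets did. Of the 62, 23 were positive, and the median was -0.30. The one that fell was the brighter probe set of Tmem268, with 685.0 and 688.8 in cell bodies, against 312.4 and 371.7 in pseudopodia, at -0.98 ± 0.21 (adjusted p = 0.0489, limma); a dimmer member probe set stood at -0.33. Tmem151a stood at -1.17 ± 0.31 with an adjusted p of 0.0777 (limma), and it entered through the cell bodies. At the other end Tmem256, which had the highest mean signal of all members, gave 5084.3 and 5103.5 in the cell bodies, compared with 6736.2 and 8506.3 in the pseudopodia, at 0.57 ± 0.17 (adjusted p = 0.102, limma). Tmem234 stood at 0.71 ± 0.19 on its brighter probe set and at 0.05 on the other. Tmem134 stood at 0.72 ± 0.25 on a dim probe set and at 0.32 on the bright one, whose fractions overlapped. Tmem29 stood at 0.85 ± 0.27, on signals of 127.5 and 87.9 against 223.9 and 185.5. With the replicate block Tmem151a, Tmem256, Tmem234, Tmem134 and Tmem29 passed (adjusted p = 0.00521, 0.00754, 0.00396, 0.0472 and 0.0272, limma), for the last 3 on the probe set with the largest difference.

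**Figure D3:**
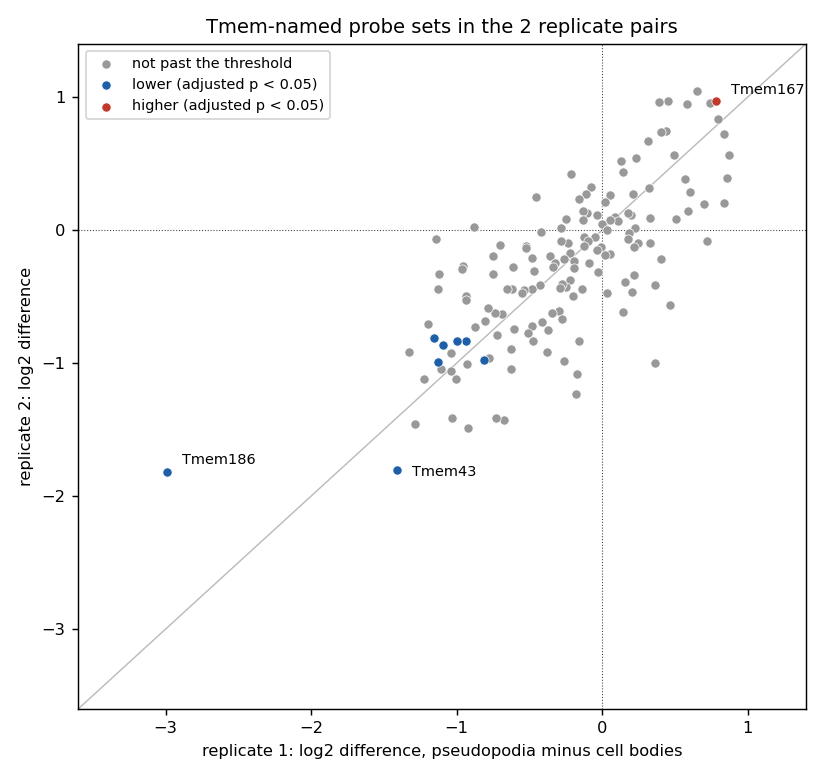
Log2 difference between pseudopodia and cell bodies in the replicate 1 pair (x axis) against the replicate 2 pair (y axis) for the 154 probe sets, with the diagonal drawn in grey and called probe sets in colour. The called members lie in the lower left and upper right quadrants; Tmem186 lies farthest out, at -2.99 and -1.82, and Tmem167 at 0.79 and 0.97.

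Several probe sets for 1 gene can be compared. Of 30 genes with 2 to 4 member probe sets, 21 had values of 1 sign and 9 had both signs. Probe sets that reached the floor only through the fraction where they are high are among them, so the shared sign is partly built in. The 4 probe sets of Tmem19 stood at -0.87, -0.80, -0.73 and -0.68, with no overlap between fractions in any. The probe set at -0.73 reached the floor only through the cell bodies, with means of 132 and 76.0, and the other 3 passed with the replicate block (adjusted p = 0.00574, 0.0181 and 0.0387, limma). In the main test none passed as a probe set (the brightest had an adjusted p of 0.0617, limma), while the gene passed by its brightest probe set (adjusted p = 0.0474, limma). Those of Tmem167 ranged from 0.53 to 0.88. Tmem168 was negative on all 3, at -0.61, -0.56 and -0.97.

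Other genes were split. The 4 probe sets of Tmem33 ranged from -1.22 to -0.03, with the brightest at the upper end. Tmem248 had a positive value of 0.49 at the brightest of 3, with 2012.8 and 1739.8 in cell bodies, against 2505.1 and 2783.6 in pseudopodia, but at -0.46 on the second, with 1722.8 and 1574.7 against 1229.7 and 1153.9, and at -0.65 on the dimmest. The fractions did not overlap in any of the 3, and none passed; with the replicate block the brightest was called higher (adjusted p = 0.0423, limma) and the others were not called. Tmem123, a mucin-like surface protein, stood at 0.85 on its dimmer probe set and at -0.13 on the brighter. Tmem109, a cation channel of the endoplasmic reticulum and nuclear membranes, stood at -1.12, -0.60 and -0.43. With the replicate block the lowest probe set of Tmem33, the dimmer one of Tmem123, the lowest of Tmem168 and the lower pair of Tmem109 passed (adjusted p = 0.00188, 0.0181, 0.00861, 0.000503 and 0.0484, limma). On the pair at -0.60 and -0.43, of the kind open to cross-hybridisation, only the replicate 1 pseudopodia array was low: the brighter gave 2522.8 and 3150.8 in the cell bodies, compared with 1359.8 and 3202.0 in the pseudopodia.

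**Figure D4:**
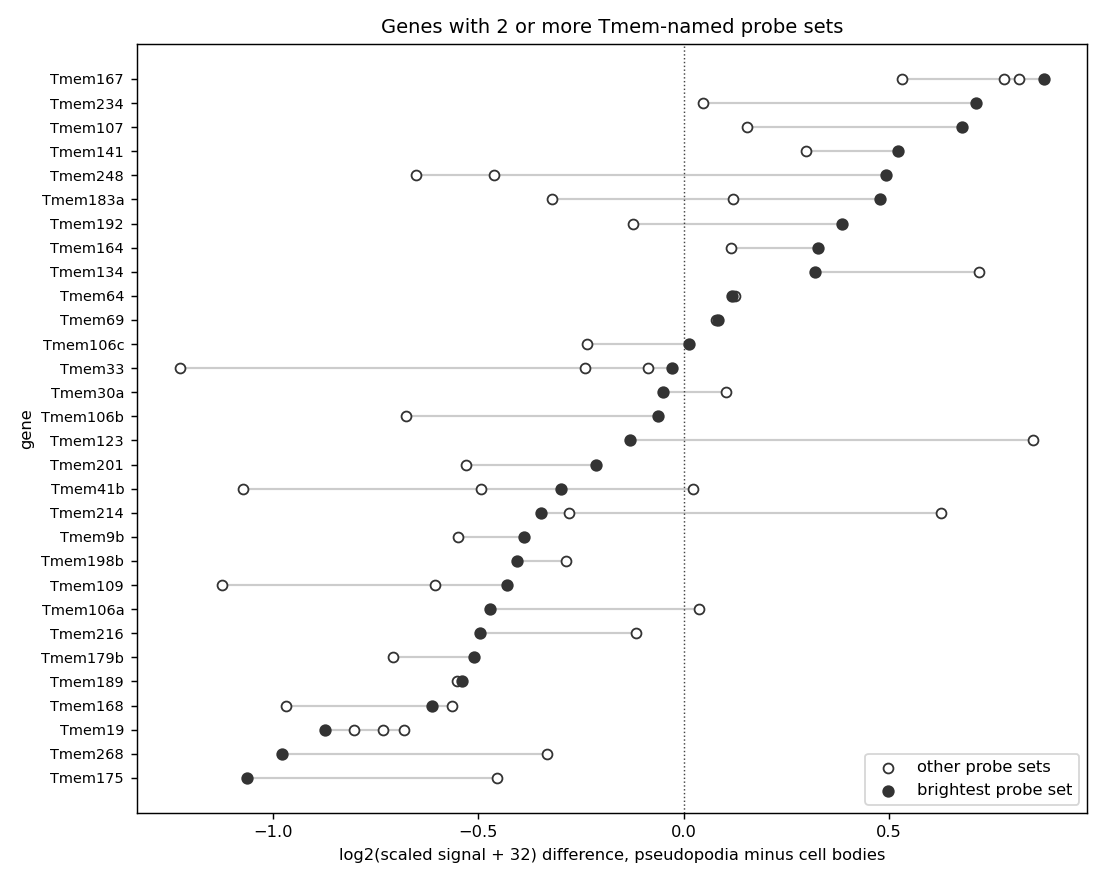
Log2 difference between pseudopodia and cell bodies (x axis) of every member probe set of the 30 genes that had 2 or more (y axis), with the brightest probe set filled and the others open. Probe sets of Tmem167 and Tmem19 lie close together on 1 side of 0, and those of Tmem248, Tmem123 and Tmem214 lie on both sides. The positive probe set of Tmem214 reached the floor only through the pseudopodia, with a mean of 127.3 there and 75.95 in the cell bodies.

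Related genes that share a number but differ in the letter did not always share a value. There were 12 such sets, each gene taken by its brightest probe set. Tmem131 and Tmem131l stood at -0.91 and -0.95, Tmem120a and Tmem120b at 0.08 and 0.02, and Tmem14a and Tmem14c at -0.22 and -0.06. Tmem87a and Tmem87b stood at -0.76 and -0.47, Tmem9 and Tmem9b at -0.98 and -0.39, and Tmem167 and Tmem167b at 0.88 and -0.17. Tmem39a and Tmem39b stood at -1.37 and -0.18, Tmem63a and Tmem63b at -0.88 and -0.22, and Tmem41a and Tmem41b at -0.98 and -0.30. Tmem184a, Tmem184b and Tmem184c stood at -0.42, -1.08 and -0.05, Tmem176a and Tmem176b at -1.05 and 0.16, and Tmem106a, Tmem106b and Tmem106c at -0.47, -0.06 and 0.01. Tmem176a reached the floor only through the cell bodies, with means of 149.8 there and 69.2 in the pseudopodia. The differences between relatives were not tested.

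Genes that work with the members were also examined, each by its brightest probe set in the fit by gene. They were listed with earlier results of these data known, so their counts are not independent support for the values of the members. Of 64 listed, 58 were measured, 6 fell and none rose, where 3.39% of all genes fell and 1.81% rose; at an unadjusted p under 0.05 in limma 24 were lower and 1 higher, where 12.2% and 10.6% of all genes were. Among oligosaccharyltransferase subunits, the partners of Tmem258, Rpn1 and Rpn2 fell (-0.77 ± 0.16 and -1.12 ± 0.19, adjusted p = 0.0388 and 0.0274, limma) and 9 of 11 were negative; Krtcap2, another small subunit, stood at 0.76 without passing. All 9 measured genes of calcium release and store-operated entry, which include the receptors served by the counter-ion channel Tmem38a (itself at -0.48, near the floor), were negative, with a median of -0.73, and Saraf, which closes store-operated channels and was formerly named Tmem66, fell (-0.97 ± 0.19, adjusted p = 0.0320, limma). Of 5 phospholipid flippases measured, 1 fell and 2 were positive, with a median of -0.57. The one that fell was Atp11a, which pairs with Tmem30a, by 0.90 (SE 0.19, adjusted p = 0.0409, limma), while Atp11b stood at 0.13. Of 8 nuclear envelope genes Sun1, which spans the inner membrane, and Ndc1, a pore membrane protein formerly named Tmem48, fell by 1.03 and 0.99 (adjusted p = 0.0313 and 0.0411, limma). None of 6 genes of autophagosome formation, 6 of complex I and ATP synthase assembly, 8 of the ciliary transition zone and 5 of the phosphatidylinositol 4-kinase complex passed, with medians of -0.76, 0.12, 0.07 and 0.10.

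Signal level and the kind of membrane protein were set beside these values. When the members were divided by signal into 3 equal parts, the median difference was -0.24 in the dimmest, -0.33 in the middle and -0.06 in the brightest, where all probe sets in the same signal ranges stood at -0.10, -0.09 and 0.07. Across the 154 members the rank correlation of difference with mean signal was 0.16, and across all 14199 probe sets of at least the same floor it was 0.19; the probe sets share the 4 arrays. Solute carriers outside the mitochondrial Slc25 family, with 164 probe sets at the same floor, stood at -0.72, with 37 lower and none higher. Tetraspanins, with 17 probe sets, stood at -0.52, with 1 lower and none higher. Over all 14199 probe sets of at least the same floor, 4.52% were lower and 1.64% higher. Of the solute carriers 9.76% had positive values and of the tetraspanins 11.8%, against 32.5% of the Tmem-named members; the difference between these families was not tested.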

How the data were processed

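The authors deposited 1 intensity per probe set for each array, on a linear scale and made with MAS5 per the submitters' processing notes. The MAS5 version, detection calls and scaling target are not given in the sources used here, but the values show a trimmed mean of 250.0 on all arrays (2% removed from either end). Because MAS5 corrects each probe by its mismatch partner, low signals are less precise than high ones. Genes were named from the platform annotation, through probe sets with 1 symbol (34958, beside 932 with several and 9211 unnamed here). All 111 member genes had the same symbol in the RefSeq table of GRCm38.p6, used for names and overlaps only; 46 overlap another gene there. Without a genome, where a probe set lies within its gene was not analysed here.

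A scaling to a trimmed mean of 500 came first, then log2(signal + 32). Probe sets at or above the median of the mean log2 values were kept (22519, all members among them). The main test was limma 3.58.1 under R 4.3.3, with lmFit, then eBayes using a mean-variance trend, two-sided, Benjamini-Hochberg adjustment over all kept and a threshold of 0.05. The fit by gene took the brightest probe set of each of 10962 genes. No exact permutation test was run, since 2 arrays against 2 allow no p below 0.333. Samples are described as independent, but how the cultures were separated is not stated, so p-values measure only the spread between these samples, and the number of arrays limits the precision. Same-numbered arrays share an experiment code in the labels and a scan day in the file headers; the change from replicate 1 to replicate 2 in the cell bodies correlated with that in the pseudopodia with r = 0.243, across probe sets. A fit with the replicate number as a block was therefore run, which leaves 1 residual degree of freedom and rests mostly on the shared spread.

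Members, classes and partner genes were chosen with earlier results of these data known. Probe sets named are those past the threshold, the 10 highest and 10 lowest with 1 sign in both pairs, up to 4 bright genes of each class, genes with several probe sets, and those at the floor; a few others were named after their values were seen. Alternatives were another pseudocount, no filter, other scalings, no variance trend, the block, 1 probe set per gene, and leaving out each array. The procedure was tested on simulated data.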

Additional observations from a re-analysis of the deposited data

How the results depend on the processing

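The group's median relative to the median probe set stayed negative under all 13 alternatives. Median centring, the replicate block and leaving out the variance trend cannot change this median, which stayed at -0.21, so they do not test it. Under the others it was -0.23 with 1 probe set per gene, -0.24 on hybridization controls and -0.26 without the filter on dim probe sets. It was -0.22 and -0.21 with pseudocounts of 16 and 64, -0.18 after quantile normalization and between -0.25 and -0.21 with 1 array left out. The counts moved far more. The shares over all probe sets are given in brackets. The 8 members called lower (3.32%) became 15 with 1 probe set per gene (3.39% of all genes) and 18 on hybridization controls (6.55%). They became 3 after median centring (2.1%), 3 with a pseudocount of 16 (2.86%) and 12 with a pseudocount of 64 (3.77%). After quantile normalization the count was 2 (2.45%), and with the replicate block it was 38 (11.3%). The single member called higher (1.08%) became 12 with the block (6.84%). On hybridization controls it became 0 (0.244%), with 1 member higher at an unadjusted p under 0.05 in limma. The share of all probe sets at that unadjusted cut was not counted on this scaling. Both counts were 0 without the filter and 0 without the variance trend. With 1 array left out they ranged from 0 to 7 higher and from 0 to 31 lower; the counts of 0 came without cell body replicate 1 (8 higher and 18 lower at an unadjusted p under 0.05) and without cell body replicate 2 (2 and 24). A fraction with a lone array is then assumed to vary like the other, so such fits cannot single out an array. The median over all probe sets, -0.03 in the main scaling, was 0.13 after median centring and -0.31 on hybridization controls, so differences near 0 have no settled direction: of 103 named member probe sets 35 changed sign under at least 1 alternative without passing there, the largest of them at -0.60. None of the 9 called members changed sign, and each lost its call under at least 1 alternative. Signal over background limits probe sets near the floor, and no detection calls were used here.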

Other observations

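A few members varied between the 2 experiments more than between the fractions; these were chosen after their values were seen. Tmem65, a protein of the mitochondrial inner membrane, gave 739.0 in cell bodies and 719.7 in pseudopodia of replicate 1, and 370.5 and 332.6 in replicate 2. Its difference between fractions was -0.09, while replicate 2 stood 1.00 below replicate 1 in cell bodies and 1.11 below in pseudopodia on the log2 scale of the deposited signals. Tmem198b moved the other way on its brighter probe set, from 852.4 and 517.9 in replicate 1 to 1257.5 and 1165.4 in replicate 2.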
